A study of Mus musculus with 16 samples.

Results

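The 44 genes described here encode proteins that copy DNA during S phase of the cell cycle, supply its nucleotides or watch over the fork, together with 3 E2F factors that control such genes. They were listed by name and taken from the array rows that carry exactly 1 gene symbol, with the row of highest mean for each gene. Such a row was found for 43 of the 44, out of 30141 genes in all, and no member had more than 1 row. The row of Mcm7 carries other symbols as well and was left out. Of the 43, 37 passed the filter on low values, which asks for a signal above the array's own median on 4 of the 16 arrays or more. The other 6, Orc1, Cdt1, Mcm10, Fen1, Exo1 and E2f1, did not.

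The tissue was the atrium of male 10-week-old C57BL/6 mice, from which total RNA was hybridised to 16 single-colour Affymetrix arrays. The 4 groups, of 4 arrays each, were sham surgery and 1, 3 and 7 days of myocardial infarction (MI), brought about by tying the left anterior descending coronary artery, which feeds the left ventricle. The sources used here do not say which atrium was taken or when the sham hearts were sampled, and the series title speaks of 0 days. No source says that arrays of a group came from separate extractions, beyond giving 4 per group. Arrays keep the numbers of their titles, 1 to 4 for sham, 11 to 14 for day 1, 31 to 34 for day 3 and 71 to 74 for day 7, and values are listed in that order.

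DNA replication starts where the origin recognition complex, CDC6 and CDT1 load a ring of 6 MCM proteins onto DNA, a step called licensing. At the start of S phase the ring is joined by CDC45 and the GINS complex to form the moving helicase, polymerase alpha with primase lays the primers, and polymerases delta and epsilon extend them on the sliding clamp PCNA, which the RFC complex loads. Many of these genes are silent or low in resting cells and are switched on by E2F factors when the retinoblastoma family lets go of them. Adult cardiomyocytes rarely divide, so that in the healthy adult heart few cells make these proteins.

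The recognition letters of E2F factors can be read in the promoters of several members, and those of 6 that come back below are shown for that reason. The sequences are RefSeq's, build GRCm38.p6, on the gene's strand from 5′ to 3′ and wholly before an annotated start. For Uhrf1 the stretch lies before a later annotated start and after an earlier start, whose own window holds no such letters. Capitals mark the 8 letters TTTCCCGC, TTTCGCGC, TTTGCCGC or TTTGGCGC on either strand, and longer capital runs are 2 such matches that overlap. The stretch of Mcm6 is chr1:128359725-128359835 on the minus strand, that of Mcm5 chr8:75109336-75109387 on the plus strand, that of Cdc6 chr11:98907993-98908040 on the plus strand, that of Pola1 chrX:93632266-93632313 on the minus strand, that of Uhrf1 chr17:56304108-56304155 on the plus strand and that of E2f7 chr10:110745221-110745268 on the plus strand.
Mcm6: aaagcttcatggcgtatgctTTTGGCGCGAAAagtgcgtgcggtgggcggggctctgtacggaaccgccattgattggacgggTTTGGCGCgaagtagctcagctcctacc
Mcm5: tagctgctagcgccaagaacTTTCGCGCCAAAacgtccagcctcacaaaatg
Cdc6: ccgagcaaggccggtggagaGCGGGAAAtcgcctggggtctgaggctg
Pola1: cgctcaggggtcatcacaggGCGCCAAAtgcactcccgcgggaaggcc
Uhrf1: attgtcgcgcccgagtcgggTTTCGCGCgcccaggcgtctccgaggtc
E2f7: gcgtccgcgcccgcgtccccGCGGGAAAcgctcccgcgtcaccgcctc

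Such letters lay within 250 bases before to 50 bases after the start in 16 of the 37 members with a promoter sequence, which is 43.2%. Over all 17491 protein-coding genes with a window of the same length the share was 3.29%. Those 16 were Cdc6, Cdt1, Clspn, E2f7, Gins3, Lig1, Mcm3, Mcm5, Mcm6, Mcm7, Orc1, Pola1, Pold1, Pole2, Rfc3 and Uhrf1. The letters TTTGAA or TTCGAA of the cell cycle homology region, which mark many mitotic genes, were in 7 of 37 windows (18.9%) against 20.2% of protein-coding genes. The CCAAT box was in 23 of 37 (62.2%) against 42.3%. The members were listed as replication genes, many of which are known E2F targets, so that these shares describe the list. Exo1, Gins1, Gins2, Gins4, Mcm4, Pole and Prim2 have no promoter sequence here.

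Values are log2 signals as deposited, each on its own row, so levels are compared between arrays for 1 gene and never between genes. A difference is the mean of 1 group minus that of another on this log2 scale, given with the standard error (SE) of a linear model over all 16 arrays at n = 4 per group. It was called higher or lower when its p-value, adjusted over 18419 genes, was under 0.05. The median of the negative control rows of an array served as its background level, between 4.44 and 4.93 over the 16 arrays. On sham arrays 12 of the 43 members did not exceed it on any array, and 22 members exceeded it on all 16 arrays. A gene not above it on any array of the lower group is given as "at least" the difference from the background level, and with no size where neither group was above it. Members above it on only some sham arrays keep the full difference from sham. These were Tk1, Clspn and E2f8, above it on 1 of 4 sham arrays, and Mcm5, Gins3 and Uhrf1, above it on 2.

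On day 3 array 31 was unlike arrays 32, 33 and 34, and counts are given with and without it. Its positive and negative control rows were separated less (0.743, where 1 is complete) than on the other day 3 arrays (0.816 to 0.825), and its background level was 4.93 against 4.52 to 4.60. In 38 of the 43 members it lay below all 3 other day 3 arrays, and in 5 within their range (Orc1, Cdt1, Rfc3, Fen1 and Exo1). It still lay above every sham value in 35 members, and below every sham value in 4 (Gins4, Rfc4, Dut and Rpa2). On array 31, 18 of the 43 members were not above its background level, against 6 to 7 on arrays 32 to 34. Some of the 35 thus exceeded sham while below that raised level, among them Cdc6, Tk1, Clspn, Brca1, Chaf1b, E2f7 and E2f8. The day 1 arrays also differed from sham, with a separation of 0.755 to 0.804 against 0.812 to 0.821. Their background level was 4.69 to 4.87, against 4.47 to 4.53 in sham. Array 13 had the lowest separation and the highest background level of day 1, and an array weight of 0.212, the lowest after array 31.

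**Figure D1:**
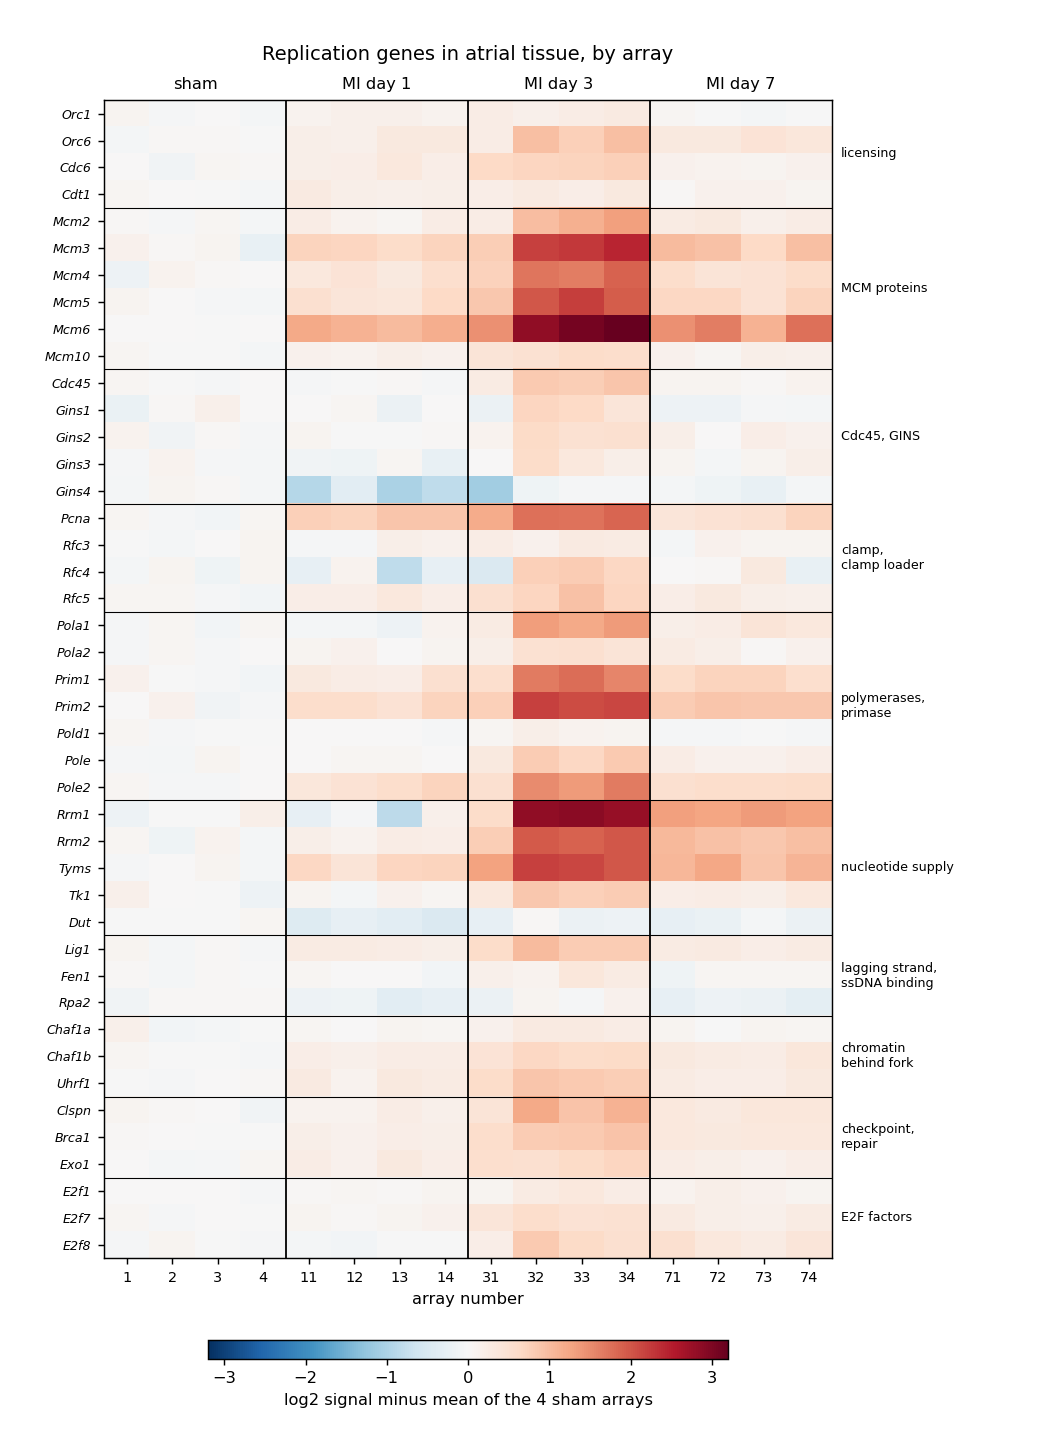
Log2 signal of the 43 members on each of the 16 arrays (columns, by group and array number) minus the mean of the 4 sham arrays, with genes in rows by role. Red is above and blue below the sham mean. Day 3 arrays 32, 33 and 34 are the reddest columns, array 31 is paler, and the day 7 columns lie between them and sham for 27 members.

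On day 3 the replication genes were higher as a group. Of the 37 tested members 31 were called higher and 0 lower in day 3 minus sham, where 23.5% of all tested genes were called higher and 20.2% lower. Among the 31, Chaf1b, Brca1 and E2f7 passed the filter only through day 3 and day 7 arrays. Their calls on those days therefore add no separate support. The median difference over the 43 members was 0.683, against 0.0414 over all genes with a row and 0.0821 over all genes tested. The 43 include 6 that were not above background on any sham or day 3 array. All 4 day 3 values lay above all 4 sham values in 29 of the 37 tested members, against 22.3% of all tested genes. The 12 members with a called difference of 1 or more were Mcm3, Mcm4, Mcm5, Mcm6, Pcna, Pola1, Prim1, Prim2, Pole2, Rrm1, Rrm2 and Tyms. Without array 31 the median was 0.768, and 34 members were called higher and 0 lower. In tissue as a whole a change in the number of cells of a type and a change in RNA per cell cannot be told apart.

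On day 1, 11 of the 37 were called higher and 3 lower in day 1 minus sham, against 24.9% and 22.2% of all tested genes, so the share called higher (11 of 37) was near that of all genes. These 11 were Cdc6, Mcm3, Mcm6, Pcna, Rfc5, Pole2, Tyms, Lig1, Chaf1b, Uhrf1 and Brca1, and the 3 lower were Gins4, Dut and Rpa2. Cdc6, Chaf1b and Brca1 were below background on every sham and day 1 array, so no size can be read for them. The count of 11 depended on how arrays were scaled: with the arrays quantile-normalised 1 of the 11 was called (Mcm6), and with each array centred on its median or on its negative controls 2 were (Mcm6 and Pcna), while Gins4, Dut and Rpa2 were called lower under all 3 scalings. Without array 31, which widens the spread that all comparisons share, the deposited values gave 18 higher and 3 lower. Also without it, quantile normalisation gave 7 higher and 11 lower and centring on the negative controls gave 6 higher and 17 lower, so the direction on day 1 rests on the scaling for many members.

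On day 7, 16 were called higher and 1 lower (Rpa2) in day 7 minus sham, against 14.9% and 9.92% of all tested genes. These 16 were Mcm3, Mcm5, Mcm6, Pcna, Prim1, Prim2, Pole2, Rrm1, Rrm2, Tyms, Lig1, Chaf1b, Uhrf1, Brca1, E2f7 and E2f8. Among them Chaf1b, Brca1 and E2f7 passed the filter only through day 3 and day 7 arrays. Chaf1b was below background on every sham and day 7 array. The median difference over the members was 0.228. With the arrays quantile-normalised or centred 3 of the 16 were called (Mcm6, Rrm2 and Tyms). Without array 31 the counts were 25 higher and 2 lower as deposited, 23 and 2 after quantile normalisation, and 21 and 1 after centring on the negative controls.

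**Figure D2:**
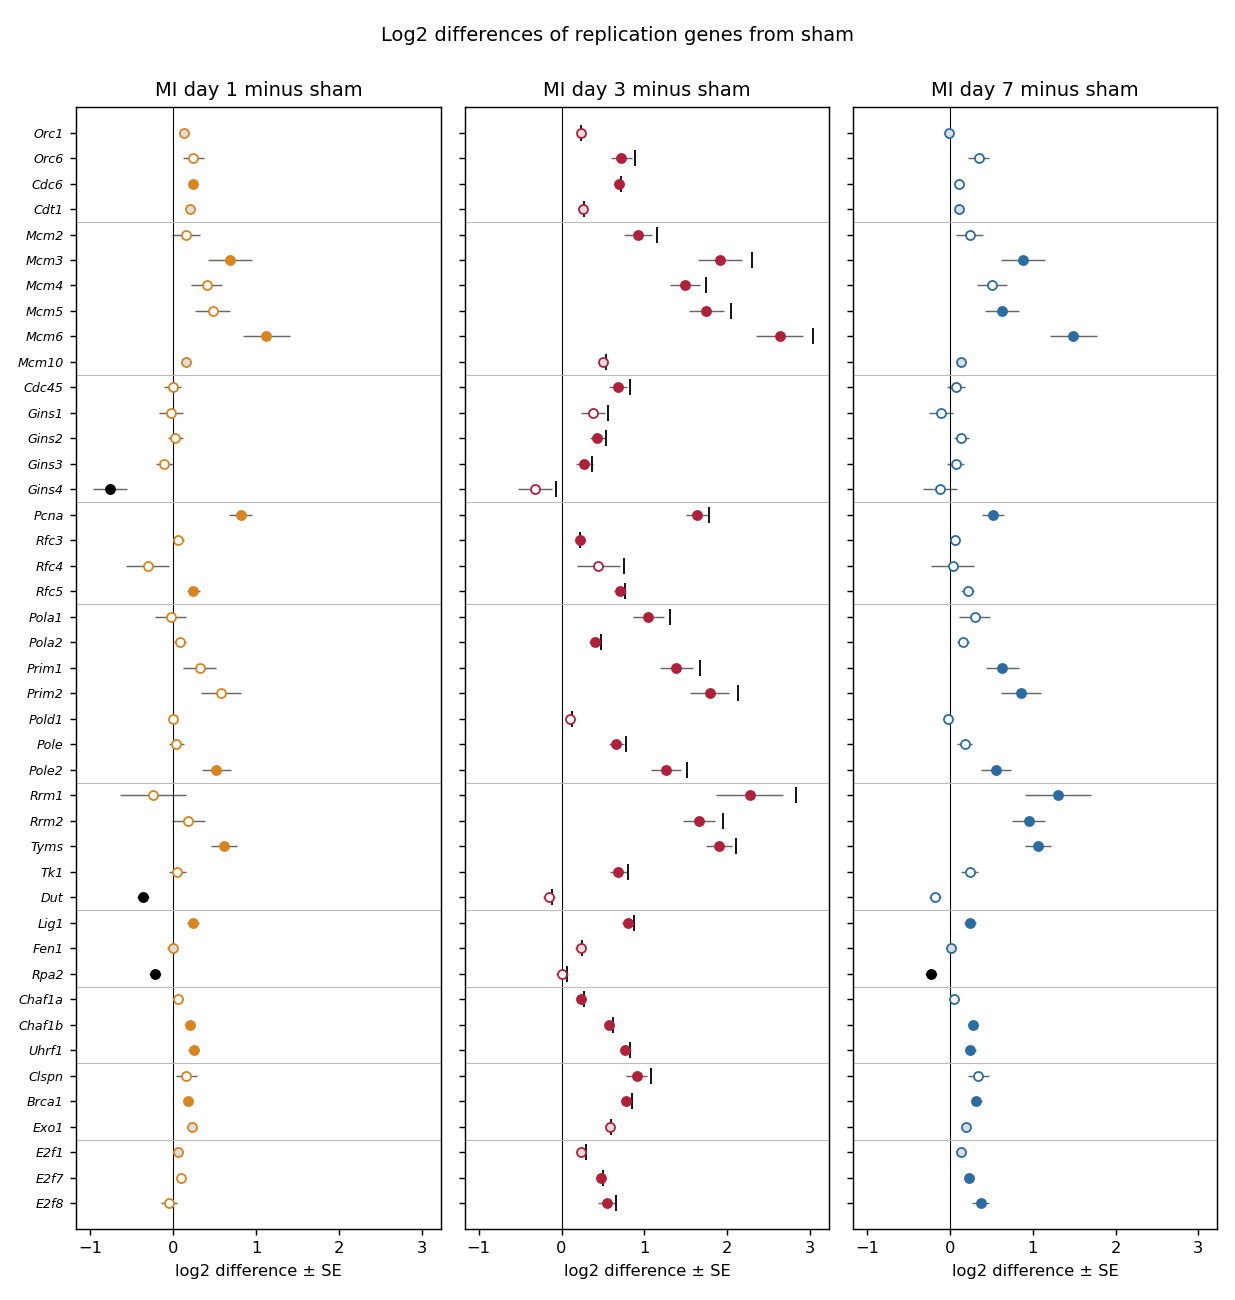
Log2 difference from sham (points) with its SE (bars) for the 43 members on days 1, 3 and 7, from the model over all 16 arrays. Coloured points were called higher, black points lower, white points neither, and grey points were not tested. Vertical ticks on day 3 give the difference without array 31. Points of genes below background in sham show the fitted value, which is no size. Mcm6 is the farthest right on day 3, at 2.64.

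Among the licensing genes only Orc6 and Cdc6 were tested. Orc6, a subunit of the origin recognition complex, had log2 signals of 6.37, 6.47, 6.46 and 6.42 in sham, 6.62, 6.58, 6.75 and 6.74 on day 1, 6.66, 7.39, 7.18 and 7.38 on day 3, and 6.75, 6.73, 6.86 and 6.78 on day 7. Arrays 32 to 34 were the highest of all, and array 31 lay within the day 1 range. The difference of day 3 minus sham was 0.72 ± 0.126 (SE, adjusted p = 0.000398). Cdc6, the ATPase that brings the MCM ring to the origin, had 4.22, 4.10, 4.28 and 4.26 in sham, 4.41, 4.42, 4.56 and 4.42 on day 1, 4.84, 4.91, 4.93 and 4.97 on day 3, and 4.35, 4.33, 4.29 and 4.35 on day 7. The 4 day 3 values, array 31 with them, lay together above every other array. The value of array 31 was, however, below that array's own background level of 4.93. Cdc6 was below background in sham, and its rise on day 3 was at least 0.42 (adjusted p = 6.83e-07), with an adjusted p of 2.49e-05 for the fall in day 7 minus day 3, which was at least 0.40 in size. Orc1, the large ATPase subunit of the origin recognition complex, read 3.79 to 3.92 on day 3 against 3.55 to 3.71 in sham, below background throughout. Cdt1, the other loading factor, read 3.65 to 3.75 on day 3 against 3.37 to 3.51 in sham, also below background.

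The MCM genes encode the helicase ring, and all 5 tested ones, Mcm2 to Mcm6, were called higher on day 3. Mcm6, whose promoter holds 3 matches to the E2F letters, had 5.62, 5.60, 5.58 and 5.60 in sham, 6.82, 6.70, 6.60 and 6.75 on day 1, 7.05, 8.43, 8.67 and 8.78 on day 3, and 7.06, 7.23, 6.71 and 7.37 on day 7. No sham value reached any value after infarction, and array 31 lay inside the day 7 range. The differences were 1.12 ± 0.283 (SE, adjusted p = 0.00582) for day 1 minus sham, 2.64 ± 0.283 (SE, adjusted p = 7.92e-06) for day 3 and 1.49 ± 0.283 (SE, adjusted p = 0.00161) for day 7. Mcm3 had 5.54, 5.44, 5.48 and 5.16 in sham, 6.13, 6.09, 6.0 and 6.13 on day 1, 6.19, 7.58, 7.66 and 7.85 on day 3, and 6.41, 6.33, 6.05 and 6.36 on day 7. Sham was lowest on all 4 arrays, and arrays 32 to 34 stood more than any others above it. The difference of day 3 minus sham was 1.92 ± 0.265 (SE, adjusted p = 5.97e-05). Mcm5 had 4.61, 4.53, 4.48 and 4.45 in sham, 5.02, 4.91, 4.89 and 5.15 on day 1, 5.37, 6.51, 6.72 and 6.46 on day 3, and 5.18, 5.18, 4.99 and 5.24 on day 7. Its 4 groups were in the order sham, days 1 and 7 overlapping, and day 3. It rose on day 3 by 1.75 ± 0.209 (SE, adjusted p = 1.82e-05) and was higher on day 7 by 0.63 ± 0.209 (SE, adjusted p = 0.0407).

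Mcm4 had 5.96, 6.24, 6.15 and 6.14 in sham, 6.46, 6.55, 6.43 and 6.67 on day 1, 6.86, 7.84, 7.75 and 8.0 on day 3, and 6.69, 6.54, 6.58 and 6.72 on day 7. Array 31 lay above every sham, day 1 and day 7 value, and below arrays 32 to 34. On day 3 Mcm4 exceeded sham by 1.49 ± 0.183 (SE, adjusted p = 2.2e-05). Mcm2 had 4.96, 4.90, 4.99 and 4.88 in sham, 5.17, 5.04, 4.99 and 5.16 on day 1, 5.16, 5.93, 6.08 and 6.25 on day 3, and 5.19, 5.24, 5.10 and 5.16 on day 7. Here array 31 was level with the day 1 and day 7 arrays, and only arrays 32 to 34 stood clear. The difference of day 3 minus sham was 0.92 ± 0.166 (SE, adjusted p = 0.000507), the smallest of the 5 ring genes tested. Mcm10, which helps to switch the loaded ring on, read 4.37 to 4.53 on day 3 against 3.90 to 4.02 in sham, with 1 of the 4 day 3 values above background and no size to be read.

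CDC45 and the 4 GINS subunits turn the loaded ring into a moving helicase, and 3 of these 5 genes were called higher on day 3, or 4 without array 31. Cdc45 had 5.88, 5.79, 5.77 and 5.82 in sham, 5.78, 5.81, 5.86 and 5.78 on day 1, 6.07, 6.64, 6.60 and 6.69 on day 3, and 5.89, 5.91, 5.84 and 5.92 on day 7. Sham, day 1 and day 7 lay within a narrow band, and all 4 day 3 values were above it. The difference was 0.68 ± 0.105 (SE, adjusted p = 0.00014) for day 3 minus sham. Gins2 had 4.26, 4.04, 4.20 and 4.13 in sham, 4.24, 4.14, 4.15 and 4.20 on day 1, 4.27, 4.78, 4.64 and 4.66 on day 3, and 4.34, 4.18, 4.36 and 4.30 on day 7. Array 31 lay among the other groups, and sham was below background on every array. Its rise on day 3 was at least 0.10 (adjusted p = 0.00161). Gins3 had 4.47, 4.62, 4.47 and 4.45 in sham, 4.40, 4.37, 4.56 and 4.26 on day 1, 4.51, 5.08, 4.85 and 4.68 on day 3, and 4.58, 4.44, 4.60 and 4.68 on day 7. Array 31 and sham 2 overlapped the other groups. The difference on day 3 was 0.28 ± 0.105 (SE, adjusted p = 0.0463).

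Gins1 had 4.82, 5.07, 5.21 and 5.06 in sham, 5.05, 5.10, 4.85 and 5.05 on day 1, 4.86, 5.72, 5.67 and 5.42 on day 3, and 4.89, 4.87, 5.0 and 4.97 on day 7. Arrays 32 to 34 exceeded every other array and array 31 was among the lowest. The difference of day 3 minus sham was 0.38 ± 0.149 (SE, adjusted p = 0.0528), and 0.56 without array 31 (adjusted p = 0.000268). Gins4 went the other way on day 1, with 7.85, 7.99, 7.93 and 7.84 in sham, 6.98, 7.56, 6.90 and 7.10 on day 1, 6.80, 7.77, 7.87 and 7.87 on day 3, and 7.83, 7.76, 7.67 and 7.84 on day 7. All 4 day 1 values and array 31 lay below every sham value, and arrays 32 to 34 overlapped sham. Its difference of day 1 minus sham was -0.76 ± 0.205 (SE, adjusted p = 0.00843), and that of day 3 minus sham, -0.32, had an adjusted p of 0.218.

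PCNA is the ring that holds the polymerases on DNA, and Pcna had 9.21, 9.11, 9.06 and 9.21 in sham, 9.90, 9.87, 10.03 and 10.04 on day 1, 10.34, 10.90, 10.88 and 11.01 on day 3, and 9.54, 9.61, 9.67 and 9.85 on day 7. The groups did not overlap, with sham lowest, then day 7, then day 1, then day 3, array 31 being lowest within day 3. The differences from sham were 0.81 ± 0.136 (SE, adjusted p = 0.000341) on day 1, 1.64 ± 0.136 (SE, adjusted p = 1.17e-06) on day 3 and 0.52 ± 0.136 (SE, adjusted p = 0.0116) on day 7. Day 7 minus day 1 was -0.29 (adjusted p = 0.111), and without array 31 its adjusted p was 0.0144, the 1 member called lower in that comparison. Of the clamp loader subunits, Rfc5 had 4.97, 4.96, 4.87 and 4.82 in sham, 5.12, 5.13, 5.23 and 5.11 on day 1, 5.42, 5.58, 5.84 and 5.60 on day 3, and 5.11, 5.22, 5.09 and 5.06 on day 7. All day 3 values, array 31 included, were above all others. The difference was 0.70 ± 0.0767 (SE, adjusted p = 8.71e-06).

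Rfc4 had 7.23, 7.38, 7.16 and 7.38 in sham, 7.02, 7.40, 6.48 and 7.03 on day 1, 6.82, 8.06, 8.09 and 7.96 on day 3, and 7.31, 7.32, 7.61 and 7.04 on day 7. Arrays 32 to 34 were the highest and arrays 13 and 31 the lowest. It passed in none of the 6 comparisons, with a difference of day 3 minus sham of 0.44 ± 0.255 (SE, adjusted p = 0.176). Without array 31 that difference was 0.75 (adjusted p = 0.0028). Rfc3 had 4.53, 4.50, 4.56 and 4.63 in sham, 4.52, 4.52, 4.75 and 4.69 on day 1, 4.78, 4.69, 4.83 and 4.81 on day 3, and 4.48, 4.70, 4.64 and 4.64 on day 7. These values lay close to background and the groups touched, and the difference on day 3 was 0.22 ± 0.0649 (SE, adjusted p = 0.012).

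Of the polymerase and primase genes 6 of 7 were called higher on day 3. Prim2, the large primase subunit, had 6.52, 6.64, 6.39 and 6.46 in sham, 7.07, 7.07, 6.97 and 7.21 on day 1, 7.26, 8.68, 8.60 and 8.63 on day 3, and 7.32, 7.39, 7.37 and 7.36 on day 7. Sham was lowest and arrays 32 to 34 highest, with array 31 between day 1 and day 7. Day 3 minus sham came to 1.79 ± 0.236 (SE, adjusted p = 4e-05), and that on day 7 was 0.86 ± 0.236 (SE, adjusted p = 0.0159). Prim1, the catalytic primase subunit, had 4.88, 4.72, 4.71 and 4.65 in sham, 5.04, 4.98, 4.95 and 5.25 on day 1, 5.28, 6.40, 6.52 and 6.29 on day 3, and 5.32, 5.45, 5.44 and 5.28 on day 7. It was lowest in sham and highest on arrays 32 to 34, and array 31 was level with the lowest day 7 arrays. Its rise on day 3 was 1.39 ± 0.199 (SE, adjusted p = 8.03e-05). Pole2, the second subunit of the leading-strand polymerase epsilon, had 4.83, 4.71, 4.72 and 4.78 in sham, 5.11, 5.22, 5.32 and 5.47 on day 1, 5.28, 6.27, 6.12 and 6.42 on day 3, and 5.28, 5.33, 5.32 and 5.34 on day 7. Days 1 and 7 and array 31 overlapped, all of them above sham. It was higher on day 3 by 1.26 ± 0.179 (SE, adjusted p = 7.27e-05).

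Pola1, the catalytic subunit of polymerase alpha, had 6.05, 6.13, 5.99 and 6.14 in sham, 6.02, 6.02, 5.92 and 6.20 on day 1, 6.33, 7.42, 7.29 and 7.45 on day 3, and 6.27, 6.32, 6.49 and 6.42 on day 7. Day 1 overlapped sham, and all 4 day 7 values lay above sham. Against sham, day 3 stood 1.05 ± 0.187 (SE, adjusted p = 0.00047) higher. Pole, the catalytic subunit of polymerase epsilon, had 4.62, 4.60, 4.74 and 4.67 in sham, 4.68, 4.71, 4.73 and 4.68 on day 1, 4.97, 5.48, 5.33 and 5.50 on day 3, and 4.90, 4.80, 4.79 and 4.86 on day 7. Day 1 was level with sham and day 3 above all others. On day 3 it exceeded sham by 0.66 ± 0.0916 (SE, adjusted p = 5.97e-05). Pola2, the regulatory subunit of polymerase alpha, had 5.45, 5.53, 5.44 and 5.50 in sham, 5.58, 5.61, 5.48 and 5.56 on day 1, 5.66, 5.97, 6.0 and 5.90 on day 3, and 5.74, 5.68, 5.52 and 5.63 on day 7. Its range was narrow and day 7 overlapped array 31. Day 3 minus sham came to 0.40 ± 0.0726 (SE, adjusted p = 0.000505). Pold1, the catalytic subunit of polymerase delta, had 4.43, 4.33, 4.35 and 4.35 in sham, 4.38, 4.37, 4.37 and 4.34 on day 1, 4.42, 4.54, 4.47 and 4.44 on day 3, and 4.34, 4.34, 4.35 and 4.32 on day 7. It was below background on all 16 arrays, and it passed in none of the 6 comparisons, although without array 31 it had an adjusted p of 0.0327 on day 3.

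Ribonucleotide reductase makes the deoxynucleotides for replication, and both of its S-phase subunits rose. Rrm1, the large subunit, had 7.74, 7.91, 7.89 and 8.11 in sham, 7.65, 7.88, 7.07 and 8.08 on day 1, 8.50, 10.74, 10.79 and 10.69 on day 3, and 9.22, 9.18, 9.27 and 9.19 on day 7. Day 1 overlapped sham, day 7 lay above every sham value, and arrays 32 to 34 stood above day 7. Array 31 lay between sham and day 7. Day 3 minus sham was 2.27 ± 0.402 (SE, adjusted p = 0.000437), day 7 minus sham 1.30 ± 0.402 (SE, adjusted p = 0.0287), and day 7 minus day 1 1.54 ± 0.402 (SE, adjusted p = 0.0124). Rrm2, the small subunit whose protein limits the enzyme to S phase, had 4.71, 4.52, 4.77 and 4.59 in sham, 4.83, 4.75, 4.88 and 4.86 on day 1, 5.44, 6.62, 6.53 and 6.63 on day 3, and 5.68, 5.58, 5.52 and 5.61 on day 7. Array 31 lay just under the day 7 values, and all of these were above sham and day 1. The differences were 1.66 ± 0.198 (SE, adjusted p = 1.73e-05) on day 3, 0.95 ± 0.198 (SE, adjusted p = 0.003) on day 7 and 0.77 ± 0.198 (SE, adjusted p = 0.0118) for day 7 minus day 1.

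Tyms, which makes thymidylate, had 5.13, 5.18, 5.26 and 5.09 in sham, 5.83, 5.58, 5.84 and 5.88 on day 1, 6.44, 7.36, 7.31 and 7.15 on day 3, and 6.22, 6.40, 6.05 and 6.25 on day 7. No value of any infarction day fell within sham, and array 31 was above every day 7 value. The differences were 0.61 ± 0.16 (SE, adjusted p = 0.00689) on day 1, 1.90 ± 0.16 (SE, adjusted p = 1.32e-06) on day 3 and 1.06 ± 0.16 (SE, adjusted p = 0.000293) on day 7. Tk1, the thymidine kinase of dividing cells, had 4.55, 4.39, 4.38 and 4.22 in sham, 4.46, 4.33, 4.51 and 4.44 on day 1, 4.71, 5.24, 5.14 and 5.20 on day 3, and 4.59, 4.62, 4.56 and 4.71 on day 7. Day 1 overlapped sham, day 7 lay just above both, and array 31 was level with the highest day 7 array. Its rise on day 3 was 0.69 ± 0.102 (SE, adjusted p = 0.000106). Only 1 of the 4 sham values of Tk1 was above background, and array 31 was below its own background level. Dut, which breaks down dUTP so that uracil stays out of DNA, had 6.64, 6.62, 6.62 and 6.70 in sham, 6.24, 6.38, 6.31 and 6.19 on day 1, 6.37, 6.68, 6.46 and 6.47 on day 3, and 6.39, 6.43, 6.58 and 6.46 on day 7. All 4 day 1 values were below sham, with a difference of -0.37 ± 0.0722 (SE, adjusted p = 0.00116), while day 3 minus sham was -0.15 with an adjusted p of 0.105.

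Lig1, the ligase that joins Okazaki fragments, had 4.78, 4.64, 4.73 and 4.65 in sham, 4.96, 4.95, 4.94 and 4.89 on day 1, 5.28, 5.71, 5.51 and 5.52 on day 3, and 4.95, 4.99, 4.90 and 4.95 on day 7. The order was sham, days 1 and 7 together, and day 3, with array 31 the lowest of day 3. It was higher on day 3 by 0.80 ± 0.072 (SE, adjusted p = 2.09e-06). Rpa2, a subunit of the complex that coats single-stranded DNA, had 5.21, 5.34, 5.35 and 5.34 in sham, 5.15, 5.17, 4.97 and 5.06 on day 1, 5.12, 5.40, 5.27 and 5.46 on day 3, and 5.04, 5.15, 5.11 and 5.01 on day 7. Day 1 and day 7 lay below all sham values and day 3 spread across them. The difference from sham was -0.22 ± 0.0741 (SE, adjusted p = 0.0249) on day 1 and -0.23 ± 0.0741 (SE, adjusted p = 0.0344) on day 7, and the day 3 minus sham difference had an adjusted p of 0.981. Fen1, the nuclease that trims Okazaki fragments, read 4.14 to 4.37 on day 3 against 3.96 to 4.06 in sham, all below background.

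Behind the fork, CAF-1 places histones on the new DNA and UHRF1 brings the maintenance DNA methyltransferase to it. Uhrf1 had 4.47, 4.44, 4.49 and 4.53 in sham, 4.78, 4.59, 4.80 and 4.75 on day 1, 5.07, 5.36, 5.31 and 5.28 on day 3, and 4.75, 4.69, 4.69 and 4.79 on day 7. All day 3 values were the highest, and days 1 and 7 overlapped each other above sham. Against sham, day 3 stood 0.77 ± 0.0656 (SE, adjusted p = 1.45e-06) higher. Chaf1b, the middle CAF-1 subunit, had 4.18, 4.09, 4.09 and 4.08 in sham, 4.31, 4.28, 4.34 and 4.34 on day 1, 4.55, 4.76, 4.70 and 4.72 on day 3, and 4.41, 4.36, 4.34 and 4.47 on day 7. It was below background in sham and on days 1 and 7, and its rise on day 3 was at least 0.19 (adjusted p = 2.73e-06). Chaf1a, the large subunit, had 5.01, 4.76, 4.79 and 4.82 in sham, 4.90, 4.85, 4.93 and 4.91 on day 1, 4.98, 5.14, 5.13 and 5.08 on day 3, and 4.92, 4.83, 4.93 and 4.91 on day 7. Sham 1 lay just above array 31, and the difference on day 3 was 0.24 ± 0.0588 (SE, adjusted p = 0.00432).

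Among checkpoint and repair genes Clspn, whose protein claspin passes the stalled-fork signal to CHEK1, had 4.48, 4.44, 4.41 and 4.29 in sham, 4.51, 4.52, 4.65 and 4.57 on day 1, 4.82, 5.61, 5.32 and 5.51 on day 3, and 4.75, 4.70, 4.77 and 4.77 on day 7. Array 31 was just above day 7, and arrays 32 to 34 were well above it. On day 3 Clspn exceeded sham by 0.91 ± 0.125 (SE, adjusted p = 5.79e-05). Only 1 of its 4 sham values was above background, and array 31 was below its own background level. Brca1, needed to mend and protect forks, had 4.15, 4.13, 4.10 and 4.11 in sham, 4.31, 4.26, 4.33 and 4.30 on day 1, 4.68, 4.94, 4.96 and 5.03 on day 3, and 4.45, 4.43, 4.45 and 4.45 on day 7. The 4 groups did not overlap, in the order sham, day 1, day 7 and day 3, although array 31 was below its own background level. It was below background in sham, so that its rise on day 3 was at least 0.41 (adjusted p = 9.43e-07). Exo1, a repair exonuclease, read 4.36 to 4.52 on day 3 against 3.79 to 3.91 in sham, below background throughout.

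Of the E2F factors, E2F1 is an activator and E2F7 and E2F8 are repressors that E2F itself induces. E2f1 had 3.88, 3.87, 3.87 and 3.82 in sham, 3.89, 3.91, 3.90 and 3.95 on day 1, 3.94, 4.13, 4.21 and 4.10 on day 3, and 3.97, 4.05, 4.01 and 3.96 on day 7. All of these lay below background, and E2f1 was not tested. E2f7 had 4.26, 4.18, 4.21 and 4.19 in sham, 4.31, 4.25, 4.31 and 4.34 on day 1, 4.59, 4.77, 4.67 and 4.70 on day 3, and 4.49, 4.40, 4.37 and 4.48 on day 7. Day 3 was highest with array 31 in it, although array 31 was below its own background level, and day 7 lay above sham. The rise on day 3 was at least 0.19 (adjusted p = 6.25e-06). E2f8 had 4.41, 4.53, 4.42 and 4.39 in sham, 4.37, 4.35, 4.42 and 4.42 on day 1, 4.65, 5.27, 5.04 and 4.96 on day 3, and 4.94, 4.77, 4.70 and 4.83 on day 7. Day 1 overlapped sham, and all day 7 values and array 31 exceeded sham. The differences were 0.54 ± 0.0995 (SE, adjusted p = 0.00057) on day 3 and 0.37 ± 0.0995 (SE, adjusted p = 0.0137) on day 7. In day 7 minus day 1 it rose by at least 0.065 (adjusted p = 0.00695). Only 1 of the 4 sham values of E2f8 was above background, and array 31 was below its own background level.

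**Figure D3:**
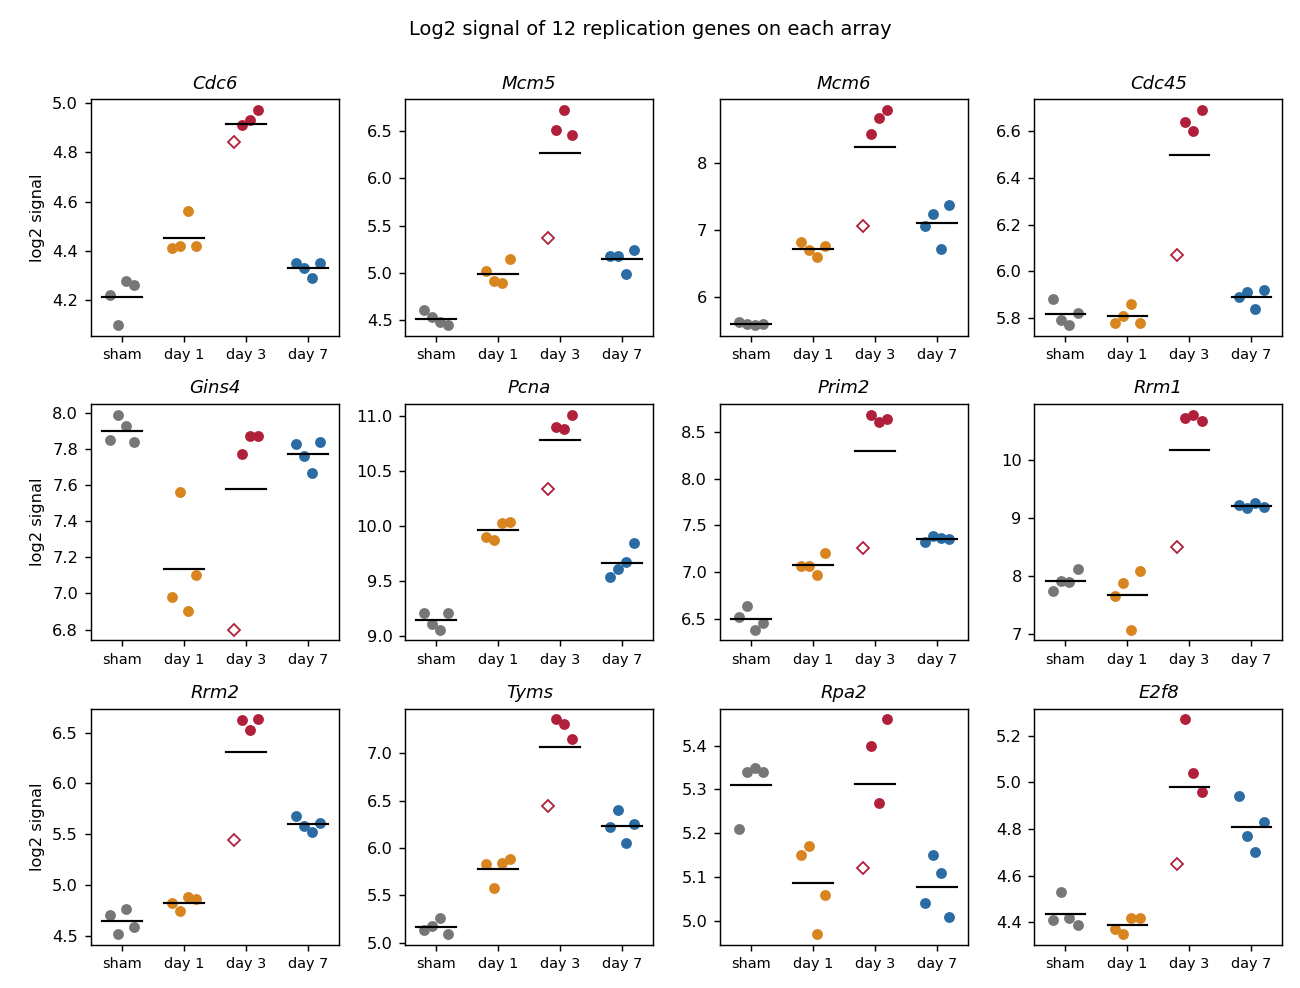
Log2 signal of 12 members on each array, with sham and days 1, 3 and 7 on the horizontal axis, 1 point per array, the group mean as a line, and array 31 as an open diamond. Axes differ between panels and do not start at 0. Cdc6 has array 31 close to the other day 3 arrays (4.84 against 4.91 to 4.97), but below that array's background level of 4.93. Rrm1 has it far below them (8.50 against 10.69 to 10.79), and Gins4 and Rpa2 dip on day 1.

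The 3 infarction days were also compared with one another. In day 3 minus day 1, 29 of the 37 members were called higher and 0 lower, against 5.95% and 2.16% of all tested genes, with a median over the members of 0.522. Among the 29, Chaf1b, Brca1 and E2f7 passed the filter only through day 3 and day 7 arrays, so their calls add no separate support. Leaving out array 31 gave 36 higher, and quantile-normalised or centred arrays gave 23 to 25. A fit on the day 3 and day 1 arrays alone tested 40 members and gave 10, of which 8 were among the 29. Of the 10, Brca1, Chaf1b, E2f7, Exo1 and Mcm10 passed the filter of that fit only through day 3 arrays and add no support. In day 7 minus day 3, 25 were called lower and 0 higher, against 8.57% and 4.06% of all tested genes, with a median of -0.455. That count was 33 without array 31, 5 or 3 with quantile-normalised or centred arrays, and 29 after quantile normalisation without array 31. A fit on those 2 groups alone tested 40 members and gave 10, of which 8 were among the 25. The others, Exo1 and Mcm10, passed its filter only through day 3 arrays and add no support. Rrm1 and E2f8 were among those not called lower, at -0.97 (adjusted p = 0.131) and -0.17 (adjusted p = 0.267), while without array 31 both were, at -1.53 (adjusted p = 6.87e-05) and -0.28 (adjusted p = 0.0187).

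In day 7 minus day 1, 4 were called higher (Gins4, Rrm1, Rrm2 and E2f8) and 0 lower, against 13.7% and 12.7% of all tested genes. Without array 31 and with the deposited scaling the count was 15 higher and 1 lower, a fit on the day 7 and day 1 arrays alone gave 11 higher, and quantile-normalised or centred arrays gave 6 to 11 higher. With array 31 left out it was 32 after quantile normalisation and 34 after centring on the negative controls. The comparisons of days 1, 3 and 7 with sham share the sham arrays.

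The complexes have other subunits that are not among the 44, and 12 of 13 of these had a row and were tested. On day 3, 3 were called higher (Pold3, Pold4 and Rfc2) and 2 lower (Orc3 and Pole4), with a median difference of 0.0033. These shares were near the 23.5% and 20.2% of all tested genes. On day 1, 1 was higher and 6 lower, against 24.9% and 22.2% of all tested genes. On day 7, 1 was higher and 1 lower, against 14.9% and 9.92%. Without array 31 the day 3 counts were 6 higher and 0 lower. Pold3, a polymerase delta subunit, had 6.81, 7.10, 7.11 and 7.12 in sham, 7.29, 7.39, 7.30 and 7.43 on day 1, 7.69, 7.82, 7.84 and 7.74 on day 3, and 7.37, 7.38, 7.14 and 7.49 on day 7. Its day 3 values lay above all others, and the rise was 0.74 ± 0.0915 (SE, adjusted p = 2.44e-05). Orc3, an origin recognition subunit, had 9.30, 9.46, 9.51 and 9.49 in sham, 9.03, 9.17, 8.69 and 9.09 on day 1, 8.51, 9.29, 9.15 and 9.15 on day 3, and 9.10, 9.17, 9.28 and 9.06 on day 7. Array 31 was lowest and arrays 32 to 34 overlapped the day 1 and day 7 values. Its difference was -0.42 ± 0.156 (SE, adjusted p = 0.0428), and without array 31 it was -0.25 and not called. The remaining 3 called were Pold4, another polymerase delta subunit, at 0.43 ± 0.127 (SE, adjusted p = 0.0133), Rfc2, a clamp loader subunit, at 0.33 ± 0.121 (SE, adjusted p = 0.0387), and Pole4, a small polymerase epsilon subunit, at -0.17 ± 0.0654 (SE, adjusted p = 0.0498). E2F letters were in the windows of 3 of the 12 partner subunits (25%).

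Among 35 other replication factors with a row 32 were tested, and 24 were called higher and 1 lower on day 3. The shares of all tested genes were 23.5% and 20.2%. Ccna2, the cyclin A of S phase and G2, had 4.86, 4.81, 4.73 and 4.97 in sham, 5.11, 5.03, 5.10 and 5.22 on day 1, 6.54, 8.99, 9.23 and 8.98 on day 3, and 7.88, 7.59, 7.43 and 7.70 on day 7. Day 1 was just above sham, array 31 lay between day 1 and day 7, and arrays 32 to 34 stood above day 7. Day 3 minus sham came to 3.59 ± 0.423 (SE, adjusted p = 1.58e-05). Wdhd1, which ties polymerase alpha to the helicase, had 5.10, 5.11, 5.16 and 5.12 in sham, 5.69, 5.74, 5.81 and 5.69 on day 1, 6.43, 6.86, 6.74 and 6.83 on day 3, and 5.66, 5.65, 5.68 and 5.67 on day 7. Its array 31 lay close to the other day 3 arrays, above all other groups, and the rise was 1.59 ± 0.0774 (SE, adjusted p = 3.27e-08). Top2a, the topoisomerase that untangles the copied strands, had 5.06, 5.10, 5.13 and 5.10 in sham, 5.30, 5.43, 5.34 and 5.53 on day 1, 7.51, 9.93, 9.89 and 9.82 on day 3, and 8.34, 8.15, 8.33 and 8.40 on day 7, the only member of the 5 lists of other genes with a larger measured rise than Ccna2. In checkpoint and repair, 8 of 9 tested genes were called higher on day 3 and 0 lower. Of those measured in both groups the 3 with the largest rise were Rad18, a ubiquitin ligase that modifies PCNA, at 1.01 ± 0.145 (SE, adjusted p = 7.7e-05), Usp1, the protease that takes ubiquitin off PCNA, at 0.73 ± 0.19 (SE, adjusted p = 0.00636), and the checkpoint kinase Chek2 at 0.63 ± 0.232 (SE, adjusted p = 0.0412). Chek1, the kinase that answers claspin, and the Fanconi gene Fancd2 were below background on every sham array and so have no rank, with rises of at least 0.96 (adjusted p = 4.8e-06) and at least 0.27 (adjusted p = 4.44e-06).

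The other enzymes of nucleotide metabolism were mixed, with 5 of 14 called higher and 4 lower on day 3. Of all tested genes 23.5% were called higher and 20.2% lower. The higher ones included Samhd1, which destroys deoxynucleotides and is abundant in myeloid cells, at 2.08 ± 0.357 (SE, adjusted p = 0.000351), the salvage kinase Dck at 1.35 ± 0.296 (SE, adjusted p = 0.00213) and the pyrimidine enzyme Umps at 0.66 ± 0.142 (SE, adjusted p = 0.0018). The lower ones were Rrm2b at -1.31 ± 0.144 (SE, adjusted p = 9.37e-06), the purine enzymes Paics at -1.06 ± 0.301 (SE, adjusted p = 0.0106) and Gart at -0.38 ± 0.111 (SE, adjusted p = 0.0123), and the mitochondrial salvage kinase Dguok at -0.44 ± 0.082 (SE, adjusted p = 0.000608). Paics was at 12.03 on array 31, against 13.57 to 13.64 on the other day 3 arrays, and without array 31 its difference was -0.67 (adjusted p = 0.00473). Among the other E2F, DP and pocket protein genes 3 of 11 tested were called higher on day 3 (Rbl1, Tfdp1 and E2f3) and 3 lower (Tfdp2, Rbl2 and E2f6). Both shares were near those of all tested genes. E2f3 was higher by 0.38 ± 0.0782 (SE, adjusted p = 0.00129), and E2f6, a repressor that acts without pocket proteins, was lower at -1.22 ± 0.305 (SE, adjusted p = 0.00502).

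In 4 pairs of related genes, picked after their values were seen, 1 gene was higher and the other lower on day 3. Rrm2b, the reductase subunit used outside S phase, had 8.88, 9.03, 9.0 and 9.23 in sham, 7.82, 8.20, 7.50 and 7.70 on day 1, 7.41, 7.88, 7.83 and 7.78 on day 3, and 8.21, 8.20, 8.37 and 8.16 on day 7. Every value after infarction was below every sham value, whereas Rrm2 was higher on day 3 by 1.66. Rbl2, the p130 pocket protein typical of resting cells, had 9.46, 9.93, 9.93 and 10.0 in sham, 8.18, 8.75, 7.65 and 8.17 on day 1, 7.71, 8.79, 8.55 and 8.62 on day 3, and 9.08, 9.06, 9.08 and 9.06 on day 7. All values after infarction were below sham, with a day 3 difference of -1.42 ± 0.239 (SE, adjusted p = 0.000307). Rbl1, its relative p107, had 5.45, 5.52, 5.58 and 5.48 in sham, 5.98, 5.76, 5.87 and 6.03 on day 1, 6.34, 7.31, 7.39 and 7.36 on day 3, and 6.65, 6.56, 6.37 and 7.20 on day 7. All values after infarction were above sham, and the rise was 1.59 ± 0.211 (SE, adjusted p = 4.11e-05).

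Tfdp2, a dimerisation partner of E2F factors, had 10.33, 10.94, 10.81 and 11.06 in sham, 9.83, 10.07, 8.12 and 9.33 on day 1, 7.14, 9.10, 9.09 and 9.07 on day 3, and 9.66, 9.43, 9.65 and 9.51 on day 7. Values after infarction were all below sham, and array 31 and array 13 were the lowest. Its day 3 difference was -2.19 ± 0.446 (SE, adjusted p = 0.00123). Tfdp1, the other main partner, had 9.10, 9.04, 8.97 and 9.10 in sham, 9.53, 9.37, 9.59 and 9.43 on day 1, 9.60, 10.41, 10.18 and 10.29 on day 3, and 9.66, 9.72, 9.37 and 9.63 on day 7. It was above sham on every array after infarction, with a rise of 1.07 ± 0.151 (SE, adjusted p = 7.17e-05). Asf1a, a histone chaperone, had 9.48, 9.59, 9.43 and 9.66 in sham, 8.42, 8.77, 7.28 and 8.66 on day 1, 7.01, 8.64, 8.49 and 8.42 on day 3, and 8.58, 8.69, 9.08 and 8.51 on day 7. No value after infarction reached a sham value, and the day 3 difference was -1.40 ± 0.351 (SE, adjusted p = 0.00505). Asf1b, its relative of dividing cells, had 4.99, 4.95, 5.08 and 4.84 in sham, 5.16, 5.16, 5.34 and 5.25 on day 1, 5.56, 6.18, 5.99 and 6.19 on day 3, and 5.57, 5.23, 5.39 and 5.50 on day 7, and rose by 1.02 ± 0.122 (SE, adjusted p = 1.86e-05). Rrm2b, Rbl2, Tfdp2 and Asf1a were each called lower on day 1 as well, Rrm2b at -1.23 ± 0.144 (SE, adjusted p = 2.1e-05), Rbl2 at -1.65 ± 0.239 (SE, adjusted p = 0.000117), Tfdp2 at -1.45 ± 0.446 (SE, adjusted p = 0.0174) and Asf1a at -1.26 ± 0.351 (SE, adjusted p = 0.0105).

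**Figure D4:**
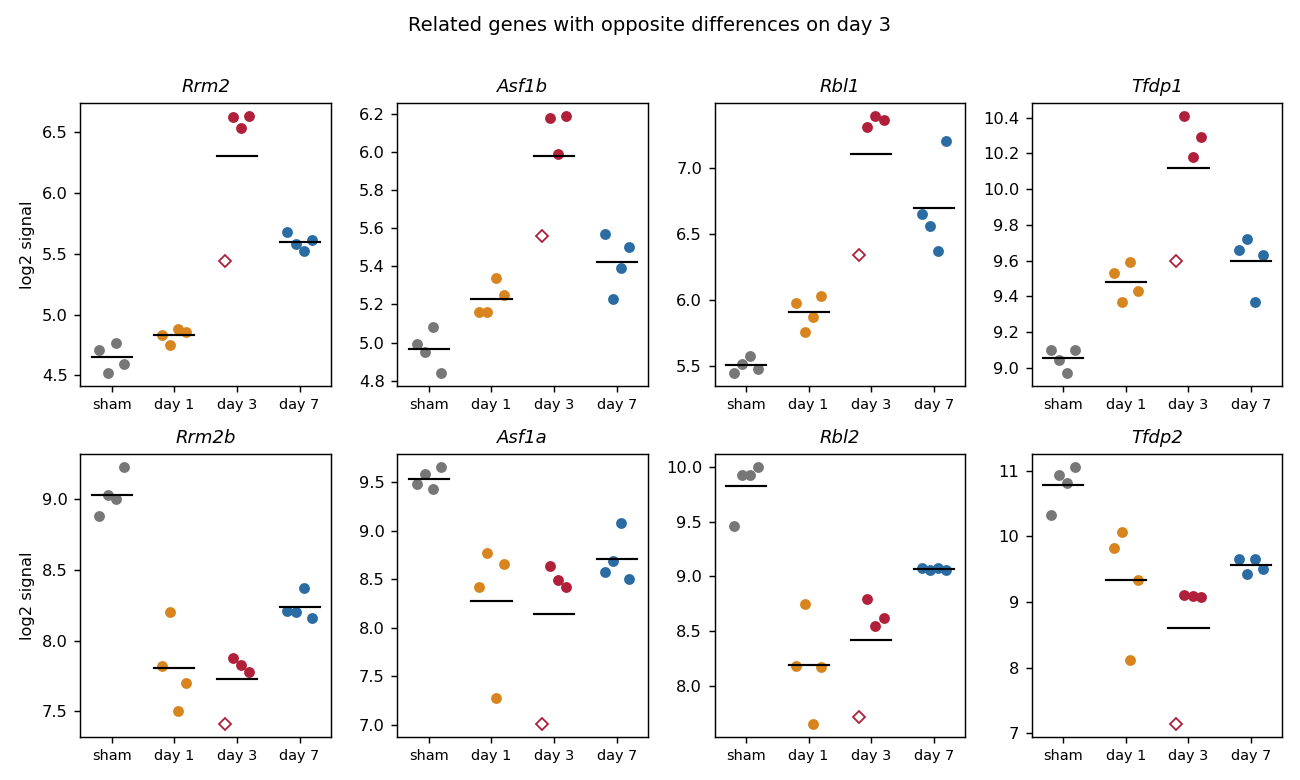
Log2 signal on each array for 4 pairs of related genes, the gene that was higher on day 3 above and its relative that was lower below, by group on the horizontal axis. Lines are group means and array 31 is the open diamond. Axes differ between panels and do not start at 0. The lower row leaves the sham level by day 1, when Rbl2 spans 7.65 to 8.75 against 9.46 to 10.0 in sham.

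Markers of several cell types also changed over these days, not all on the course of the replication genes. Their part in the differences above was not tested. All 12 macrophage markers were called higher on day 3, where 23.5% of all tested genes were. Their mean log2 signal, minus its sham mean, was 2.37 to 2.65 on day 1, 2.21 to 3.85 on day 3 and 2.46 to 3.80 on day 7. Of the neutrophil markers 7 of 8 tested were called higher on day 3, while the granule genes Camp, Ngp, Ltf, Mpo and Elane were not above background on any array. Their mean was 2.91 to 3.86 on day 1, 0.93 to 3.42 on day 3 and 0.066 to 0.19 on day 7. Of 8 fibroblast markers 4 were called higher on day 3 (Col1a1, Col1a2, Col3a1 and Postn), and their mean was -0.84 to 0.28 on day 1, 0.50 to 2.71 on day 3 and 3.73 to 4.46 on day 7.

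Cardiomyocyte markers ran the other way, with 4 of 8 called lower on day 3 (Myl7, Ryr2, Sln and Kcnj3), against 20.2% of all tested genes. Their mean, minus its sham mean, was -2.58 to -1.54 on day 1, -3.91 to -0.89 on day 3 and -1.18 to -0.39 on day 7. All 8, the atrial genes Myl7, Myl4, Sln and Nppa among them, were above background on all 16 arrays. Of 8 lymphocyte markers 7 were not above background on any array. The replication genes themselves averaged 0.13 to 0.19 above the sham mean on day 1, 0.36 to 0.97 on day 3 and 0.30 to 0.34 on day 7. These averages take in members not above background, 18 to 20 of the 43 on day 1 arrays and 18 on array 31, against 13 to 18 in sham. The background level itself was 4.69 to 4.87 on day 1 and 4.93 on array 31, against 4.47 to 4.53 in sham. The averages on day 1 and on array 31 therefore give no clear size. Array 31 had the lowest day 3 value for the replication genes (0.36 against 0.94 to 0.97), for macrophage markers (2.21 against 3.58 to 3.85), for fibroblast markers (0.50 against 2.48 to 2.71) and for cardiomyocyte markers (-3.91 against -1.17 to -0.89). It had the highest for neutrophil markers (3.42 against 0.93 to 1.00), within the day 1 range.

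**Figure D5:**
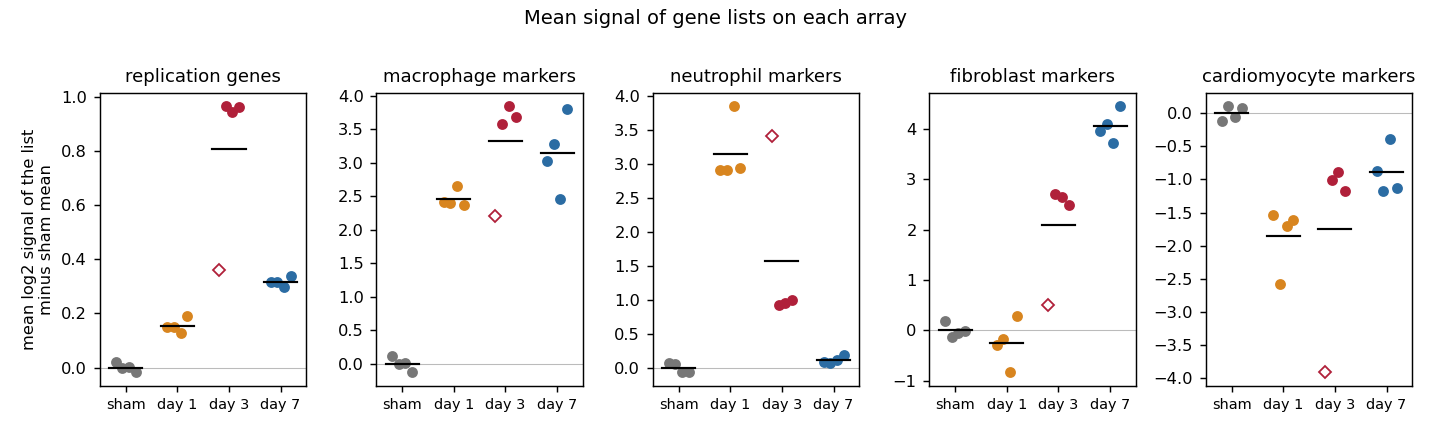
Mean log2 signal of the 43 replication genes and of 4 marker lists on each array minus the mean of the 4 sham arrays, by group on the horizontal axis, with group means as lines and array 31 as an open diamond. The 43 include members below background. Vertical axes differ between panels. Replication genes are highest on day 3 arrays 32 to 34 (0.94 to 0.97), neutrophil markers on day 1 and array 31, and fibroblast markers on day 7.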

How the data were processed

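Log2 signals of 16 arrays were used as the authors deposited them, 72688 rows by 16 columns. Affymetrix Expression Console is the software in the submitters' processing notes, and its background correction, summarisation and scaling settings are not stated there. Differences were therefore kept on the deposited log2 scale, with no conversion to folds. The labels name a 3' mouse genome array, but the row names are those of transcript clusters, so the array design is uncertain. Rows were named through an annotation table of those clusters, and RefSeq names of GRCm38.p6 updated 813 symbols.

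Genes were the rows with 1 symbol, the highest-mean row for each. Those above the median of all rows on at least 4 of 16 arrays were fitted with limma 3.58.1 in R 4.3.3 (lmFit with 1 mean per group, eBayes with a variance trend), checked on simulated data. P-values were adjusted by Benjamini-Hochberg over 18419 genes within each of 6 comparisons. They use the spread between the arrays of a group, which may be technical, and the number of arrays limits their precision.

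The members, the other gene lists and the rule on background were chosen with earlier results of these data known. The rule for values on every array took, among tested members, the largest and smallest day 3 difference of each role and those called lower or called nowhere, besides Pcna, Mcm2, Mcm5, Cdc6, Rrm2, E2f1, E2f7 and E2f8. The remaining tested members were added after their values were seen. Of each other list the 3 largest measured rises and every fall on day 3 are named. Alternatives were other scalings, filters and models, array weights and leaving out arrays. No protein sequences were analysed here.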

Additional observations from a re-analysis of the deposited data

Results flagged for a closer look

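Within groups of 4 arrays, 16 of the 172 gene and group combinations had 1 array whose gap to the nearest other array was a large part of the group's range by Dixon's test, and chance flags about 1 in 20 groups. In 8 of the 16 the array was day 3 array 31, lowest in each: Mcm3 at 6.19, Cdc45 at 6.07, Gins4 at 6.80, Rfc4 at 6.82, Pola1 at 6.33, Prim2 at 7.26, Rrm1 at 8.50 and Rrm2 at 5.44. In day 1, array 13 was high for Cdc6 (4.56), array 11 was high for Cdt1 (3.72) and array 12 was low for Tyms (5.58). In day 7, array 71 was low for Fen1 (3.88). In sham, sham 2 was high for Gins3 (4.62), sham 1 was low for Rpa2 (5.21) and high for Chaf1b (4.18), and sham 4 was low for E2f1 (3.82). The values of Cdc6, Cdt1, Fen1, E2f1 and Chaf1b named here lay below background.

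In the deposited values the differences from sham differed between day 3 and the other days for many members. Day 3 against day 1 called 29 of 37 members, all higher, against 5.95% of all tested genes. Of these, Chaf1b, Brca1 and E2f7 passed the filter only through day 3 and day 7 arrays. Day 7 against day 3 called 25, all lower, against 8.57%, but only 5 or 3 with quantile-normalised or centred arrays. Day 7 against day 1 called 4, all higher, a share not above the 13.7% of all tested genes.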

How the results depend on the processing

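No paired analysis was possible because the groups share no replicate numbers. The rise on day 3 held under every alternative run, with 25 to 36 members called higher than sham over 29 settings. The 36 came with no filter, where 43 were tested. In day 3 minus sham 1 was called lower (Dut) under quantile normalisation with or without array 31 and when array 32 was left out. Leaving out 1 array at a time gave 30 to 34 called higher on day 3, 7 to 18 on day 1 and 10 to 25 on day 7. It gave 2 to 3 called lower on day 1, 0 to 1 on day 3 and 0 to 2 on day 7. Between days it gave 24 to 36 higher in day 3 minus day 1, 16 to 33 lower in day 7 minus day 3, and 3 to 15 higher and 0 to 1 lower in day 7 minus day 1. The highest counts, except those called lower on days 1 and 3, came without array 31, which has an array weight of 0.0558.

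After quantile normalisation, centring on medians and centring on negative controls, called higher were 1, 2 and 2 on day 1, 3, 3 and 3 on day 7, and 7, 6 and 11 in day 7 minus day 1. Called lower were 5, 3 and 3 in day 7 minus day 3, 0 on day 7 under each, and 5 on day 1 under centring on negative controls. That centring subtracts 1 constant from each array and so moves all genes alike, and with or without array 31 it took small day 1 minus sham differences past 0, Rfc5 to -0.013, Lig1 to -0.022 and Uhrf1 to -0.0080. It did the same for Cdc6 (-0.019), Chaf1b (-0.049) and Brca1 (-0.082), whose values are no sizes, since these genes are below background on all sham and day 1 arrays. These scalings moved the median of all genes in day 1 minus sham to -0.149, -0.0941 and -0.193, against 0.0639 as deposited, and the share of calls that are higher to 30.3%, 41.6% and 27.1%, against 52.9%. In day 3 minus sham that share was 36.1%, 49.4% and 37.4%, against 53.8%. In day 7 minus sham it was 60.8%, 76.8% and 67.8%, against 60.0%, in day 7 minus day 3 59.5%, 43.1% and 54.6%, against 32.1%, and in day 7 minus day 1 75.0%, 71.5% and 81.4%, against 51.8%.

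With array 31 also left out, quantile normalisation gave 7 higher and 11 lower on day 1, 1 lower on day 3, 2 lower on day 7 and 32 higher in day 7 minus day 1, and centring on negative controls gave 6 higher and 17 lower on day 1 and 34 higher in day 7 minus day 1. Array weights gave 19 higher on day 1, 26 higher and 2 lower on day 7, and 15 higher and 1 lower in day 7 minus day 1. Arrays 31 and 13 left out together gave 18, 25 and 2, and 15 and 1 for the same counts. Fits on only the 2 groups compared gave 10 higher in day 3 minus day 1, 10 lower in day 7 minus day 3, 11 higher in day 7 minus day 1 and 2 lower on day 7. In the comparisons that gave 10, 40 members were tested and 8 of the calls were shared with the main fit. The calls not shared were those of Exo1 and Mcm10, which passed the filter of these fits only through day 3 arrays. With no filter 0 were lower on day 7 and 1 in day 7 minus day 1. The cause of these changes was not tested.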
